A study of Homo sapiens with 5 samples.

Results

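Distal regions with MYC, MED17 and MED30 are stretches of the genome of MIA PaCa-2 cells, an established human pancreatic cancer line, where peaks of all 3 proteins met away from the ends of protein-coding genes. The 3 peak lists of parental cells were merged wherever peaks shared at least 1 bp on chromosomes 1 to 22 and X. The regions were chosen by the presence of a peak in each of these lists and by position: over 1 kb from every start and end of a protein-coding RefSeq gene, and not within a gene-free stretch longer than 2 Mb. This left 1363 regions of 19126 merged regions, of 15564 outside the gene-free stretches and of 6466 outside them with all 3 proteins. The distal regions were 21.1% of the last set (95% exact Clopper-Pearson interval 20.1 to 22.1%), and the other 5103 lay at gene ends and are called promoter regions here, although an end can also be a gene's 3′ end. Intervals of shares below are of this kind, and those of odds ratios are Mantel-Haenszel intervals. All cover counting error only, since each group held 1 library. PCR copies are also not independent molecules.

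The study mapped MED17, MED30 and MYC by chromatin immunoprecipitation with sequencing (ChIP-seq) in parental MIA PaCa-2 cells under normal culture. MYC was mapped again in MIA PaCa-2 cells that carry a teton short hairpin against MED30 (shMED30 cells), either with no doxycycline or following 3 days of doxycycline, which addresses how MED30 loss affects MYC binding. The Mediator libraries came from doubly fixed cells, in which 20 min of disuccinimidyl glutarate at 2 mM preceded 10 min of 1% formaldehyde, and the MYC libraries from cells fixed in formaldehyde alone. Each of the 5 groups held 1 library, so differences between groups stand unreplicated and carry no p-value. How far MED30 was depleted was not analysed here, nor whether the hairpin line is a clone. Peaks numbered 13172 (MED17), 12040 (MED30) and 14331 (MYC) in parental cells, and MYC peaks in shMED30 cells numbered 7158 in the absence of doxycycline and 4621 in its presence. The background pileup is the number of reads expected at a summit by chance, as recovered from the deposited fold and p-value. Its lowest value among the peaks of each list was 1.60, 1.65, 2.56, 0.310 and 0.186 in the same order. The shMED30 libraries were therefore 8.27 and 13.8 times shallower by this measure than the parental MYC library, and their lists reached to a q-value of 0.1 where the parental lists ended at 0.05.

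Mediator is a large complex that carries signals from DNA-bound transcription factors to RNA polymerase II. MED17 belongs to its head, and MED30 is a subunit of animal Mediator that was not found in the yeast complex. MYC is a transcription factor that pairs with MAX and prefers the E-box CACGTG, most often at promoters rich in CpG. A region far from a gene's annotated ends can be an enhancer, an alternative promoter inside the gene, the promoter of a noncoding RNA gene, or sequence that collects reads for other reasons. These kinds were separated here by position only.

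The sequences that follow are 250 bases before annotated starts that lay inside distal regions, from the RefSeq windows of GRCh38.p14, 5′ to 3′ on the strand of the gene. The 5 with an E-box are those with the highest MYC fold among starts that had CACGTG before them, and capitals mark the E-box. SNHG26 and SNHG17 were added because their regions had higher MYC folds and no CACGTG in the window. Their MYC summits lay 102 bp (SNHG26) and 153 bp (SNHG17) after the start, past the end of the window and of the printed bases. Whether CACGTG lies at these summits was not tested.
RNF220 start, chr1:44631718-44631967, plus strand: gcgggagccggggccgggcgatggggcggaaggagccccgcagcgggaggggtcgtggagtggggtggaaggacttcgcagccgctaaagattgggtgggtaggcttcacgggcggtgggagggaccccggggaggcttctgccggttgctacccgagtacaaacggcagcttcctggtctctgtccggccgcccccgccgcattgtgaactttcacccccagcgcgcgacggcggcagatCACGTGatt
LOC112267936 start, chr5:154755021-154755270, minus strand: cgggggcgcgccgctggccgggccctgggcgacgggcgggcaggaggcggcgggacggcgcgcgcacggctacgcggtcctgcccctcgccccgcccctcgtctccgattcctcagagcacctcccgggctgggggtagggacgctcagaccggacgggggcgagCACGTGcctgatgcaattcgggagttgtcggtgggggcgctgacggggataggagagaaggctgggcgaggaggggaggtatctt
GEMIN7 start, chr19:45078945-45079194, plus strand: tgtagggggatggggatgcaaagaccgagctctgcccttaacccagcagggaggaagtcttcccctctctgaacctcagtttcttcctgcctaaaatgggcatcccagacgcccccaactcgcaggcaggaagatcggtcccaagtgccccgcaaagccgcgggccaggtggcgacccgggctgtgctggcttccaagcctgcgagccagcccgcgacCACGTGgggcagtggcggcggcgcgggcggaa
WDR81 start, chr17:1724454-1724703, plus strand: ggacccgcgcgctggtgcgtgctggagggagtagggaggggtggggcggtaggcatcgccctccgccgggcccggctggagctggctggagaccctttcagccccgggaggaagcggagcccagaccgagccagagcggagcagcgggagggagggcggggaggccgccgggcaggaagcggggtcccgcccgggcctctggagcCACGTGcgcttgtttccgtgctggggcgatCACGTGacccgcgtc
MSN start, chrX:65667404-65667653, plus strand: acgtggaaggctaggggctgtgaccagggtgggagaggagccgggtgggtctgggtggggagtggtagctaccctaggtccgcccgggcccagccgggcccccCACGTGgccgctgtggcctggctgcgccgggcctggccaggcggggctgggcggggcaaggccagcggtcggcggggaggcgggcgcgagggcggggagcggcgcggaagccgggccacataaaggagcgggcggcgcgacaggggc
SNHG26 start, chr7:22853990-22854239, plus strand: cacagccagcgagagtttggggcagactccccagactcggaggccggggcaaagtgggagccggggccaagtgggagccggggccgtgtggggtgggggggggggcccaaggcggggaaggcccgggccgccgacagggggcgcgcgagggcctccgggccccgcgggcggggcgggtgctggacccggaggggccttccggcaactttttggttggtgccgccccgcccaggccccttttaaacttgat
SNHG17 start, chr20:38435329-38435578, minus strand: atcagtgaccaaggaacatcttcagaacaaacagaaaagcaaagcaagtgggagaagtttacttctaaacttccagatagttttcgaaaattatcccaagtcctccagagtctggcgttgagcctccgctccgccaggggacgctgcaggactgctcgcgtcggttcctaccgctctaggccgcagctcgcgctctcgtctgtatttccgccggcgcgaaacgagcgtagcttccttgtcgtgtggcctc

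RNF220 encodes a ubiquitin ligase, LOC112267936 is a noncoding gene whose start lies in an intragenic region of LARP1, which encodes an RNA-binding regulator of ribosomal protein mRNAs, and GEMIN7 encodes a part of the SMN complex that assembles spliceosomal particles. MSN encodes moesin, which ties actin to the membrane. The E-box lay 9 bases before the RNF220 start, 85 before the LOC112267936 start, 32 before the GEMIN7 start and 147 before the MSN start. WDR81 had 2 copies of it, the farther one 45 bases before its start.

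By annotation the 1363 distal regions were 670 intragenic (49.2%, 46.5 to 51.8%), 407 at or inside a noncoding gene (29.9%, 27.4 to 32.4%) and 286 intergenic (21.0%, 18.8 to 23.2%). Among the 671 distal regions with both Mediator subunits and no MYC, 43.5% were intragenic (39.7 to 47.4%), 28.6% lay at noncoding genes (25.2 to 32.2%) and 27.9% were intergenic (24.5 to 31.4%). The gene table gives gene bodies and not exons, so exon and intron could not be told apart. A protein-coding gene body took priority, and 162 of the intragenic regions also lay within 1 kb of the end of a noncoding gene. The median region was 1111 bp wide and 14983 bp from the nearest protein-coding gene end, with quartiles of 5636 and 39904 bp.

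An annotated transcript start lay inside 534 of the 1330 distal regions on chromosomes with a start table (40.2%, 37.5 to 42.8%). The rule had removed regions within 1 kb of protein-coding gene ends, and with them the outermost coding starts. It did not use other starts. The background was 18.1% of all distal regions of any peak makeup, and chromosome 8, with 33 distal regions, had no start table. The starts were those of protein-coding genes in 341 regions and of long noncoding RNA (lncRNA) genes in 193. Each region counted 1 start, the one of lowest coordinate where it held several. A region with starts of both kinds was thus counted under 1 kind. Of the 650 intragenic regions, 392 held a start (60.3%, 56.4 to 64.1%). In 341 of these 392 it was a protein-coding start of the gene that held the region. These are alternative starts inside genes, over 1 kb from the gene's outermost ends. The rule fixes this, since a protein-coding start in a distal region can only lie inside its own gene.

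The share with a start differed between kinds of distal region. It was 25.04% of 655 distal regions with both Mediator subunits and no MYC (21.8 to 28.5%) and 4.29% of 1260 distal regions with MYC and no Mediator peak (3.24 to 5.56%). Distal regions with all 3 proteins thus held a start more often than either, with intervals that did not overlap. Of 4951 promoter regions with all 3, 84.5% held one (83.5 to 85.5%). That contrast is largely set by the rule, which placed promoter regions at gene ends. The median region width was 1111 bp in distal regions with all 3, 845 bp in distal regions with Mediator and no MYC and 1226 bp in promoter regions with all 3, and its part in these shares was not tested. With starts up to 1 kb away counted too, the share was 43.2% in distal regions with all 3 (40.5 to 45.9%). It was 28.2% with Mediator and no MYC (24.8 to 31.9%) and 11.2% with MYC and no Mediator peak (9.50 to 13.1%), a narrower contrast with the last set.

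**Figure D1:**
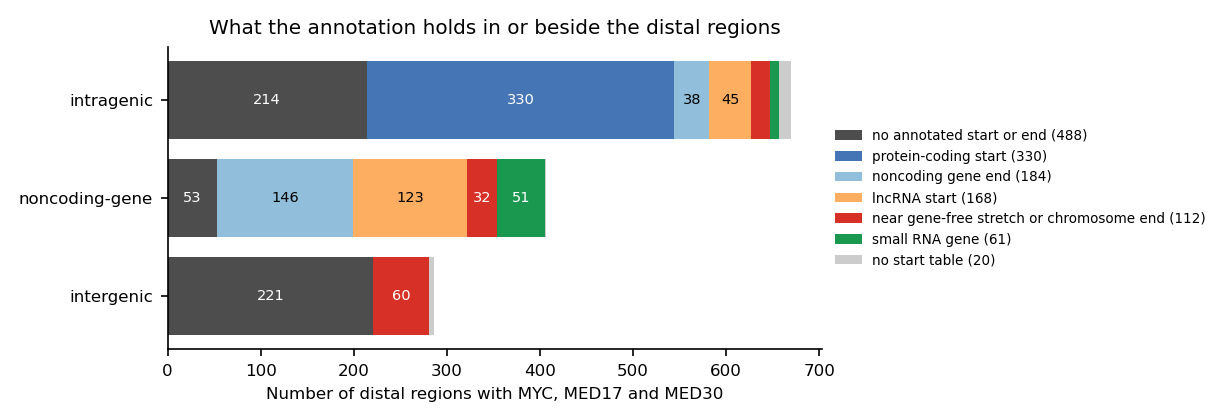
Number of distal regions with MYC, MED17 and MED30 (x axis) in each annotation class (y axis), split by what lies in or beside them; each region counts once and the legend gives totals. The intragenic bar is led by 330 regions with a protein-coding start, and the intergenic bar by 221 with no annotated start or end.

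With each region counted once, 112 regions lay beside gene-free stretches or at chromosome ends, within 2 Mb of a stretch of over 2 Mb without a gene or within 200 kb of the outermost annotated gene of a chromosome. Of the rest, 61 lay within 1 kb of a small RNA gene, 330 held a protein-coding start, 168 held a lncRNA start and 184 lay within 1 kb of another noncoding gene end. The 488 that remained had no annotated start or end of any kind (35.8%, 33.3 to 38.4%), of which 221 were intergenic, 214 intragenic and 53 inside noncoding genes. These 488 are the ones whose position is most like that of an enhancer. Such regions were a smaller share here than in the other kinds of distal region. They were 352 of 671 with both Mediator subunits and no MYC (52.5%, 48.6 to 56.3%). With MYC and no Mediator peak they were 921 of 1301 (70.8%, 68.2 to 73.3%). A further 20 lay on chromosome 8 and could not be placed. The plot of regions by annotation class shows the split.

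Around the starts inside distal regions, counted 1 a region, the 3 proteins took different places. The MED17 summit had a median of 182.5 bp inside the gene, the MED30 summit a median of -1 bp and the MYC summit a median of 25.5 bp. MED17 summits lay on both sides, with quartiles of -159.75 and 312 bp and 30.7% of them before the start. Of the MED17 summits 43.4% lay within 250 bp of the start, against 74.5% for MED30 and 69.7% for MYC. At the 4186 promoter regions with a start inside, the medians were 175 bp for MED17, -20 bp for MED30 and 24.5 bp for MYC, so the order was shared. Around the 164 starts in distal regions with Mediator and no MYC, the medians were 156 bp for MED17 and 8.5 bp for MED30.

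**Figure D2:**
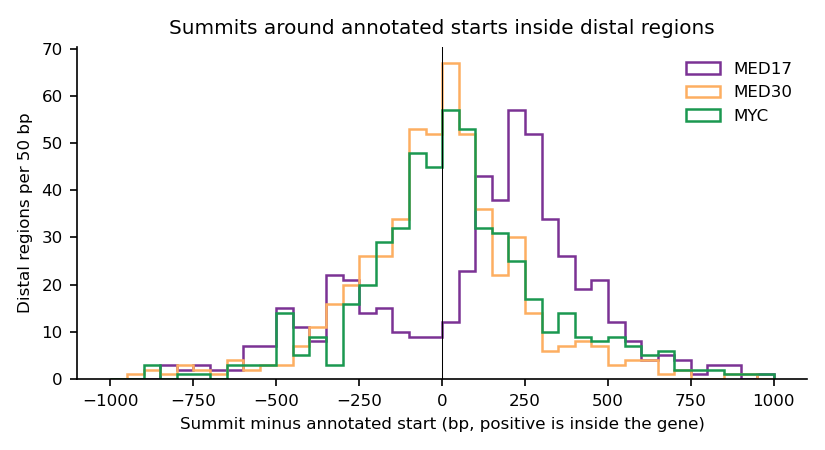
Distance in bp from the annotated start to the summit of each protein (x axis, positive inside the gene) in the 534 distal regions with a start inside, as regions per 50 bp (y axis). MED30 and MYC summits gather at the start, with medians of -1 and 25.5 bp. MED17 summits lie on both sides of it, more often to its right, with a median of 182.5 bp and 30.7% before the start. Outside the axis lie 8 MED17, 2 MED30 and 7 MYC summits.

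The E-box CACGTG, searched on both strands (it reads the same on each), was in 57 of the 534 start windows inside distal regions (10.7%, 8.19 to 13.6%). A window runs from 250 bases before to 50 after the start. All 34961 windows of the table had it in 7.27%, promoter regions with all 3 in 13.4% (12.3 to 14.4%) and distal regions with Mediator and no MYC in 1 of 164 (0.610%, 0.0154 to 3.35%). With distal starts ranked by MYC fold and split into 5 equal bins, the share was 2.804% in the lowest bin, then 6.54%, 10.3% and 12.1%, and 21.7% in the highest (14.3 to 30.8%). Promoter starts went from 6.56% in their lowest bin to 26.8% in their highest. GC content also differed, with a median of 68.7% in distal start windows and 58.7% in all windows, and its part in these shares was not tested.

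**Figure D3:**
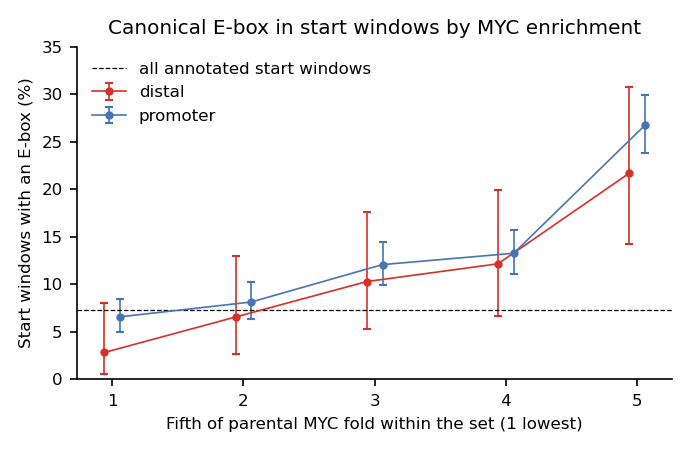
Share of start windows with CACGTG (y axis, %) by parental MYC fold in 5 equal bins within each set (x axis), for distal and promoter regions with all 3 proteins; bars are 95% exact intervals and the dashed line is all annotated windows, 7.27%. Distal starts climb from 2.804 to 21.7% and promoter starts from 6.56 to 26.8%.

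For TGANTCA, the AP-1 motif, distal windows stood above promoter windows and near all windows. It was in 7.30% of distal start windows (5.24 to 9.85%), 3.63% of promoter windows with all 3 (3.09 to 4.24%) and 7.68% of all windows. Distal windows with Mediator and no MYC had a like share, 7.93% of 164 (4.29 to 13.2%). GGAATG, a TEAD motif, was in 10.1%, 8.58% and 14.0% of the same sets, and CCAAT, the NF-Y motif, in 30.7%, 33.7% and 34.6%. The GATA factor motif, searched as the letters GATAAG, was in 1.69% of distal windows, 2.53% of promoter windows with all 3 and 6.35% of all windows. CACATG, a noncanonical E-box, was in 6.93%, 6.19% and 11.1% of the same sets. Distal windows with Mediator and no MYC had GATAAG in 6.10% and CACATG in 6.71%. Each was searched on both strands. A match in a window is a description, not a bound site.

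The fold enrichment at the strongest summit of each region, the authors' own value per peak, had a median of 5.14 for MED17, 5.02 for MED30 and 4.53 for MYC in distal regions. The medians at promoter regions with all 3 were 5.36, 5.17 and 4.77. In distal regions the MYC summit lay a median of 156 bp from the MED30 summit and 220 bp from the MED17 summit. The rule used the presence of these peaks, so these values are a description. The ratio of MED30 to MYC pileup, each over its library's background, had a median of 1.43 in distal and 1.40 in promoter regions, and the ratio of MED17 to MYC a median of 1.54 and 1.72. Mediator and MYC cells were fixed differently, so a ratio says nothing on its own about amounts of protein.

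Among regions with a protein-coding start inside, the strongest across the 3 parental lists was that of RNF220 at chr1:44631267-44632747. Its fold was 7.48 for MED17, 8.43 for MED30, 11.01 for MYC, and 8.87 and 7.19 for MYC in shMED30 cells without and with doxycycline. PPRC1 encodes a coactivator of mitochondrial gene expression, and the region at its start, chr10:102132741-102134294, had folds of 7.51, 5.56, 10.4, 11.2 and 8.94 in the same order. MYC was high in all 3 MYC lists in both. The region at a start of GEMIN4, another part of the SMN complex, at chr17:751662-752831 had folds of 6.76, 6.30, 10.3, 7.21 and 5.95. At a start of BRWD1, which encodes a bromodomain protein, chr21:39312981-39314651 had 5.97, 6.58, 10.99, 7.32 and 6.79. Of the other starts that ranked high, ZNF529 had a peak in all 5 lists, AEBP2 had none with doxycycline, and CIZ1 and ZNF790 had none in either shMED30 list.

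AMD1 encodes adenosylmethionine decarboxylase of polyamine synthesis, and a start inside it at chr6:110874286-110876393 had folds of 4.54 for MED17, 7.40 for MED30, 6.16 for MYC and 5.64 for MYC in shMED30 cells without doxycycline, with no peak with it. SLC3A2 encodes the heavy chain of the large neutral amino acid transporter, and its region at chr11:62880485-62882250 had 5.39, 5.59 and 7.32 in the parental lists and no shMED30 peak. AHCY encodes the hydrolase of adenosylhomocysteine, and its region at chr20:34301973-34303627 had 5.45, 6.80, 9.33 and 10.4, the last without doxycycline, and no peak with doxycycline.

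Regions with no annotated start or end were led by ART1, which encodes an ADP-ribosyltransferase. Its intragenic region at chr11:3653803-3654775 had folds of 16.2 for MED17, 15.4 for MED30, 17.2 for MYC and 14.7 and 14.9 for MYC in shMED30 cells without and with doxycycline. All 5 lists were thus high to a like degree. A region within the annotated bodies of both RANBP2 and SH3RF3, at chr2:109199352-109199846, had 13.6, 11.3, 14.9, 14.5 and 6.28. ARHGEF18, which encodes a guanine nucleotide exchange factor, had 10.6, 8.85, 11.7 and 8.88 at chr19:7450329-7451089 and no peak with doxycycline. ADAP1, ERC1 and SERINC2 held like regions, with parental MYC folds of 11.5, 12.5 and 11.2 and a peak in both shMED30 lists.

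The highest MYC fold beyond chromosome ends and gene-free stretches was at an intergenic region 39478 bp from FOXK1, a forkhead factor gene tied to glucose use. At chr7:4641179-4642817 MYC had folds of 21.6 in parental cells, 24.2 without doxycycline and 19.5 with it, while MED17 had 4.46 and MED30 6.66. The MYC fold in each MYC list thus stood far above both Mediator folds in this region, which does not compare amounts of protein. PRRX2, a homeobox gene, held a region at chr9:129697059-129698190 with MYC folds of 10.3, 15.4 and 7.97 beside 5.11 for MED17 and 6.30 for MED30. Intergenic regions near NUMBL, which encodes a Notch pathway adaptor, and near the homeobox genes UNCX and NKX1-1 had parental MYC folds of 10.7, 9.17 and 12.9.

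Several regions at small RNA genes had Mediator folds well above their MYC fold. Small nuclear RNA (snRNA) genes, whose products form the spliceosome, lay in 19 distal regions. In the 8 outside an array on chromosome 17, MED30 folds ran from 9.72 to 18.7 with a median of 15.4, MED17 folds from 6.18 to 14.6 with a median of 10.4, and MYC folds from 3.37 to 4.99 with a median of 3.67. All 8 thus had MED30 far above the median distal region and MYC no more than slightly above it. The region of RNVU1-6, a U1 variant gene, had 14.3 for MED17, 18.7 for MED30 and 4.05 for MYC, and that of RNU4ATAC, a minor spliceosome gene inside CLASP1, had 9.02, 15.5 and 3.46. Of these 8 regions 1, at RNU5F-1 inside ARMH1, had a shMED30 peak, without doxycycline (fold 6.90).

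The 11 regions of the chromosome 17 array had a median fold of 8.88 for MED30 and 4.11 for MYC, and 7 of them had a MYC peak without doxycycline and 1 with it. The region of LOC124904138 at chr17:43251481-43252368 had the highest MYC and MED30 folds of the array, with 10.7 for MED17, 14.6 for MED30, 12.4 for MYC and 11.1 without doxycycline. Copies of an array and families such as RNU1 are nearly identical, so reads can be shared between them and each copy's value is uncertain. The same holds for transfer RNA (tRNA) genes, ribosomal RNA genes and DUX4 repeats.

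Host genes of small nucleolar RNAs (snoRNAs), which guide the chemical marking of ribosomal RNA, had high MYC folds in some regions. Hosts named SNHG with a number, GAS5, ZFAS1 or DANCR lay in or within 1 kb of 11 distal regions with median folds of 5.73 for MED17, 6.99 for MED30 and 5.65 for MYC. SNHG15 had 6.496 for MED17, 6.99 for MED30, 15.0 for MYC and 12.6 and 14.0 for MYC in shMED30 cells without and with doxycycline. SNHG26, whose sequence is printed above, had 5.71, 6.34, 14.7, 15.9 and 12.6, and SNHG17, at a region that also overlaps LOC124904958, had 5.61, 8.11, 13.5, 13.6 and 11.03. In these 3 the MYC fold in each MYC list was above both Mediator folds, while over the 11 regions the median MED30 fold was above the median MYC fold. SNHG16 had 9.89 for MYC and 7.71 without doxycycline, SNHG12 had 5.19 and 5.36, and SNHG11 had 3.98 and 4.11, none with a peak with doxycycline. SNHG5, SNHG21, SNHG29, SNHG30 and DANCR had parental MYC folds from 4.26 to 6.82 and no shMED30 peak. EPB41L4A-AS1, a host under another kind of name and not among the 11, had 5.84 for MED17, 9.34 for MED30, 7.87 for MYC and 5.58 and 6.08 in the shMED30 lists.

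**Figure D4:**
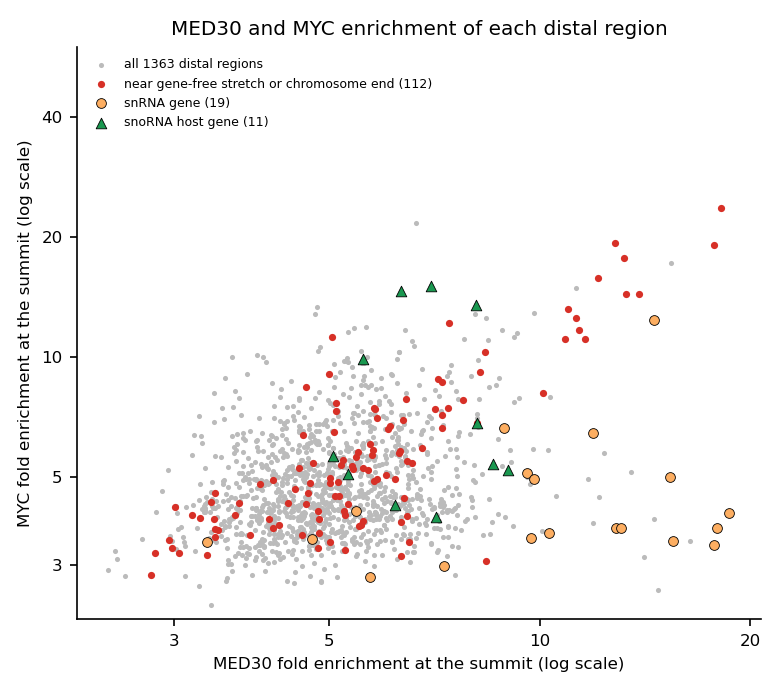
MED30 fold (x axis, log scale) against MYC fold (y axis, log scale) at the strongest summit of each of the 1363 distal regions, 1 point a region. The 8 snRNA regions outside the chromosome 17 array have MED30 from 9.72 to 18.7 and MYC from 3.37 to 4.99, the snoRNA host regions SNHG15, SNHG26 and SNHG17 have MYC from 13.5 to 15.0 and MED30 from 6.34 to 8.11, and the regions beside gene-free stretches or chromosome ends reach high values on both axes.

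Transfer RNA genes, read by RNA polymerase III, lay in or within 1 kb of 24 distal regions, with median folds of 5.199 for MED17, 4.70 for MED30 and 4.44 for MYC. Of these 4 had a MYC peak without doxycycline and 2 with it. TERC, the telomerase RNA gene, had 7.72, 7.51 and 4.12 at chr3:169764286-169765414 and no shMED30 peak. NORAD, a lncRNA that binds PUMILIO proteins, had 7.78, 8.13 and 7.19 and no shMED30 peak. MIR17HG, the host of the miR-17 to miR-92 cluster and a known MYC target, had 6.73 for MED17, 4.77 for MED30, 7.91 for MYC, and 10.4 and 6.66 for MYC in shMED30 cells without and with doxycycline.

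Hairpins of microRNAs lay inside 11 distal regions, and their 13 mature sequences in RefSeq had 13 different seeds. The mature let-7i-5p and miR-1915-3p are printed because their regions, with parental MYC folds of 7.70 and 6.18, were the highest of those in noncoding genes outside flanks of gene-free stretches. Capitals mark the seed, bases 2 to 8.
hsa-let-7i-5p: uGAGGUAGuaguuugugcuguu
hsa-miR-1915-3p: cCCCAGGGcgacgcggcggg

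The let-7i region had folds of 4.55 for MED17, 5.72 for MED30 and 5.11 for MYC in shMED30 cells without doxycycline, and no peak with it. The miR-1915 region had 5.51 for MED17, 6.26 for MED30 and 5.09 for MYC with doxycycline, and no peak without it. Let-7 microRNAs are known to lower RAS and MYC mRNAs.

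Regions beside gene-free stretches or at chromosome ends stood apart. They were 8.22% of all distal regions and 31 of the 136 in the highest of 10 bins by mean rank across the 3 parental lists (22.8%). Nearest RABL2B, at chr22:50807903-50808460, folds were 19.5 for MED17, 18.2 for MED30, 23.6 for MYC, and 16.0 and 14.0 for MYC in shMED30 cells without and with doxycycline. Nearest IL9R, at chrX:156030361-156030736, they were 18.2, 17.7, 19.1, 19.6 and 19.4. In both regions all 5 libraries were high together. Across the 104 of these regions with recovered pileups, the median ratio of MED30 to MYC pileup over background was 1.08 and that of MED17 to MYC 1.09, against 1.47 and 1.60 in distal regions elsewhere.

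With regions under 10 kb apart joined, 86 distal regions fell into 30 clusters, and the other 1277 stood alone. The largest held 11 regions over 63623 bp nearest CWH43 on chromosome 4, with MED30 folds from 2.82 to 13.3 and MYC folds from 3.22 to 14.4. The next held 7 on chromosome 16 nearest LOC124903767, with MED30 folds from 2.95 to 8.37. All 11 and all 7 had a MYC peak in both shMED30 lists, and all 18 lay beside gene-free stretches. A further pair, of 4 regions each, were snRNA genes of the chromosome 17 array, and another, at chr1:629295-634227, held 4 in LOC102724250. None of the 5 had an annotated start inside. Among smaller clusters were pairs at CDKN2C, an inhibitor of CDK4 and CDK6, and CIC, a repressor of RAS pathway targets. Away from such flanks, all 4 regions of a cluster nearest DEFB115 and all 3 of one in IGK had peaks in both shMED30 lists. Leaving out the flanks thus does not remove every cluster of this kind.

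Of 19974 protein-coding genes, 1274 held a distal region or were the nearest coding gene to one (6.38%), and the lists below are read against that share. The median of their strongest MYC fold was 4.66. Of 22 receptor tyrosine kinase, RAS and MAPK pathway genes 8 did so: EPHA2, SPRED2, SPRY4, DUSP1, EGFR, MET, PHLDA1 and ERBB2, with a median MYC fold of 4.07. MET and ERBB2, receptor kinases, held theirs: MET had 6.02 for MED17, 4.12 for MED30 and 4.06 for MYC, and ERBB2 had 6.21, 8.55 and 3.85. The region nearest PHLDA1, 198111 bp away, had a MYC fold of 6.86 and a peak of 4.47 without doxycycline, and the other 7 had no shMED30 peak at their listed region.

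Of 12 AP-1 genes 3 were the nearest coding gene to a distal region: JUN, ATF3 and JUNB. Their listed regions lay 119418, 6175 and 8210 bp away and had MYC folds of 4.69, 4.44 and 5.02. Of 15 MYC network genes 2 held a distal region or were nearest to one. These were MNT, a MAX partner that represses, and MYC itself, nearest to a region at a noncoding gene 433551 bp away. None of 20 ribosome biogenesis genes held or neighboured a distal region, while 18 of the 20 had a promoter region with all 3, as did 6206 of all 19974 protein-coding genes. Genes of other pancreatic cells gave 0 of 15 acinar and 0 of 15 islet genes, and the mesenchymal and classical pancreatic cancer lists gave 0 of 15 and 0 of 16. Occupancy of this kind cannot by itself check the cell type.

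In other lists the counts were 3 of 18 actin and adhesion genes, 3 of 12 amino acid and polyamine genes, 2 of 15 hypoxia and glycolysis genes, 2 of 10 apoptosis genes, 1 of 20 YAP and TEAD pathway genes, 1 of 14 NF-kB and cytokine genes, 1 of 31 Mediator subunit genes and 1 of 14 immune genes. PFKFB3, which encodes a driver of glycolysis, held the strongest of them at chr10:6163591-6164554, with 7.87 for MED17, 4.06 for MED30 and 9.72 for MYC and no shMED30 peak. WWTR1, which encodes TAZ, held a region with a MYC fold of 3.68 and a peak of 4.85 with doxycycline. Of the noncoding lists, 8 of 17 snoRNA host genes (EPB41L4A-AS1 among them), 1 of 13 microRNA host genes (MIR17HG) and 3 of 16 lncRNA genes (NEAT1, NORAD and FTX) held or lay within 1 kb of a distal region, as did 492 of all 18177 annotated lncRNA genes.

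The shMED30 lists were not used to choose the regions. The rule did ask for a parental MYC peak, which many regions in the background of all merged regions lack. A MYC peak without doxycycline lay in 327 distal regions (24.0%, 21.7 to 26.3%), against a background of 12.9% of merged regions outside gene-free stretches. With doxycycline 209 had one (15.3%, 13.5 to 17.4%, background 7.42%), and 151 had one in both lists (11.1%, 9.46 to 12.9%, background 4.81%). Promoter regions with all 3 had 22.4%, 12.6% and 8.41%. Distal regions with Mediator and no parental MYC peak had one in 5 of 671 without doxycycline and in 4 with it.

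The parental MYC fold moved with these shares. With regions ranked by MYC fold and split into 10 bins, in the lowest bin 5.95% of 168 distal regions had a peak without doxycycline, and in the highest bin 80.6% of 134 did (72.9 to 86.9%). Promoter regions went from 3.76 to 78.3%. With doxycycline distal regions went from 3.57 to 66.4% and promoter regions from 1.25 to 56.6%. Within these 10 bins, the odds of a peak in both lists were 1.67 times higher in distal than in promoter regions (95% Mantel-Haenszel interval 1.32 to 2.11, counting error only). Without regions beside gene-free stretches or chromosome ends the ratio was 1.16 (0.885 to 1.51).

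**Figure D5:**
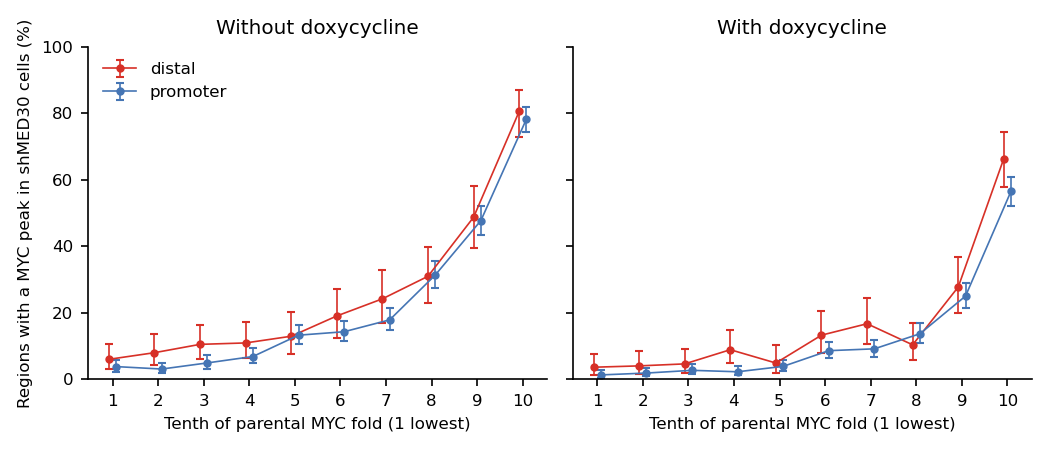
Share of distal and promoter regions with a MYC peak in shMED30 cells (y axis, %) without doxycycline (left) and with it (right), by parental MYC fold in 10 bins (x axis); bars are 95% exact intervals. Both kinds of region climb together, from 5.95 and 3.76% in the lowest bin to 80.6 and 78.3% in the highest without doxycycline.

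The role of a region moved with these shares as well. A peak without doxycycline was in 57.1% of regions beside gene-free stretches or chromosome ends (47.4 to 66.5%), 37.7% of small RNA gene regions (25.6 to 51.0%), 23.3% of those with a protein-coding start (18.9 to 28.3%), 20.5% of those with no annotated start or end (16.996 to 24.3%), 19.6% with a lncRNA start (13.9 to 26.5%) and 13.6% at other noncoding gene ends (8.99 to 19.4%). A peak in both lists was in 44.6%, 11.5%, 9.09%, 9.22%, 5.36% and 4.89% of them in the same order. The regions beside gene-free stretches or chromosome ends were thus highest in both counts. Among the start windows inside distal regions, CACGTG was in 19.2% of 120 with a peak without doxycycline (12.6 to 27.4%) and 8.21% of 414 without one (5.75 to 11.3%). Within 5 bins of parental MYC fold the odds ratio of such a peak with CACGTG was 1.52 (0.779 to 2.95), an interval that includes 1.

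Of the 333 no-doxycycline MYC peaks in distal regions, 150 overlapped a peak with doxycycline (45.0%, 39.6 to 50.6%). The background was 29.6% of all 2592 such peaks outside gene-free stretches, and promoter regions with all 3 had 35.2% of 1170 (32.5 to 38.0%). Within 10 bins of no-doxycycline fold the odds ratio of distal against promoter was 1.46 (1.10 to 1.93). Within bins of summit pileup it was 0.981 (0.724 to 1.33), and without regions beside gene-free stretches or chromosome ends 1.03 (0.755 to 1.42), where 37.4% of 265 distal and 35.5% of 1132 promoter peaks were kept. A difference between distal and promoter regions thus did not hold up under either. Peaks that were kept had a median pileup of 17 reads in distal regions and those not kept 8. Depth differed between these 2 libraries (background 0.310 and 0.186), and effects of depth and of MED30 depletion on the peaks not kept cannot be told apart.

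Of the 8 distal regions with the highest no-doxycycline folds and a peak with doxycycline too, 5 lay beside gene-free stretches or chromosome ends, nearest LOC107987432, IL9R, ANHX, RABL2B and CWH43, and 3 did not, at FOXK1, SNHG26 and PRRX2. Elsewhere than at such flanks, ART1, SH3RF3, PTPRN2, SNHG17 and DUX4L26 came next, chosen after their values were seen. PTPRN2, which encodes a phosphatase-like protein of secretory granules, had MYC folds of 8.22, 13.8 and 9.41, and the DUX4L26 pseudogene 12.9, 13.5 and 11.3. The regions with the highest no-doxycycline folds and no doxycycline peak were MNT (11.9), LINC01123 (11.2), LOC124904138 (11.1), LOC124905564 (10.6) at the end of chromosome 1, and AHCY (10.4). At MNT, chr17:2392428-2394235, the parental folds were 6.28 for MED17, 5.32 for MED30 and 9.69 for MYC. Its no-doxycycline summit had a pileup of 25 reads.

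A MYC peak with doxycycline and none without it was in 58 distal regions (4.26%, 3.25 to 5.47%). The highest were at SH2D2A (9.004), UNC13A (7.33), MIR550A3HG (7.27), the tRNA gene TRT-TGT2-1 (7.07) and the SMG1P2 and SLC7A5P1 pseudogenes (6.85). SH2D2A, which encodes a signalling adaptor, had a parental MYC fold of 9.99, and TRT-TGT2-1 had 11.7. These doxycycline peaks rested on 9 to 12 reads at the summit.

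The limit of 1 kb set which regions counted as distal. Just inside it were SLC2A10 at 1003 bp with MYC fold 3.91, FAM83G at 1004 bp with 5.56, SPOCD1 at 1017 bp with 4.15 and ACBD5 at 1023 bp with 3.04. Just outside were LOC102724701 at 997 bp with 8.16, NOL3 at 992 bp with 6.42, SCAF11 at 975 bp with 3.85 and CERCAM at 973 bp with 4.04.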

How the data were processed

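The data are peak lists of 5 libraries, 1 a group, all of MIA PaCa-2. Per the submitters' processing notes, Trim Galore, Bowtie2, deepTools and MACS2 were used with build hg38. Their settings and any control library: not given in the sources used here. Per the labels, reads were 100 bp and paired. Each list gives the authors' fold enrichment (a linear ratio) at the summit, and the deposited −log10 p and −log10 q per peak. The deposited score is 10 times the −log10 q, rounded down, and was not analysed further. Summit pileup and background were recovered from fold and p (99.6 to 99.9% of peaks within 0.002 of the −log10 p). Regions were merged, annotated with the RefSeq GRCh38.p14 tables and classed with Python 3.11.15, pandas 2.3.3 and scipy 1.17.1; the code was tested on simulated data. Named regions are the strongest of each class by mean rank across the parental lists, those highest in the shMED30 lists, the 5 largest clusters, up to 4 genes a list and those nearest the 1 kb limit; regions of RNA genes and of each role were added after their values were seen. Members and lists were chosen with earlier results of these data known. The E-box search used 34961 start windows and not the planned summit windows, since no genome sequence was used here. Settings varied are listed in the closing section. Some regions and 1 gene list are not reported here.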

Additional observations from a re-analysis of the deposited data

How the results depend on the processing

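Across 16 settings, of which 2 were chosen after seeing the data (leaving out regions beside gene-free stretches or chromosome ends, and regions with a start inside), 75 of 123 recomputed values stayed within their range: counts within 1.5 times, shares within the 95% interval of the main value. The number of distal regions was 1227 at 2.5 kb and 1058 at 5 kb from gene ends, 856 over 1 kb from the ends of every gene, 330 with the upper 50% of each parental list, 592 with a MYC summit within 250 bp of both Mediator summits and 829 without a start inside. The intragenic, noncoding-gene and intergenic shares were 45.0, 32.5 and 22.5% at 5 kb, 44.8, 31.2 and 23.9% with the upper 50%, 48.8, 26.4 and 24.8% with close summits, 52.0, 30.0 and 18.1% without regions beside gene-free stretches or chromosome ends, and 35.8, 43.2 and 21.0% with noncoding genes taken first. Shares with a MYC peak without doxycycline, with it and in both lists were 46.1, 30.6 and 23.3% with the upper 50%, 26.5, 18.2 and 14.7% with close summits, 20.2, 13.1 and 9.02% where the shMED30 summit had to lie within 250 bp of the parental MYC summit, and 21.0, 12.4 and 8.07% without regions beside gene-free stretches or chromosome ends; the share in both was 13.0% over 1 kb from every gene and 13.0% without a start inside. Kept peaks were 53.1% in distal regions with close summits, 37.4% without regions beside gene-free stretches or chromosome ends and 51.4% without a start inside, and 40% in promoter regions with the upper 50%. The odds ratio of kept peaks, 1.46, was 1.18 with the upper 50%, 1.30 by summits within 250 bp and 1.03 without regions beside gene-free stretches or chromosome ends, each with an interval that includes 1, and 0.981 in bins of summit pileup. In the other settings it ran from 1.40, with 1 bp shared by all 3 peaks, to 1.86 without a start inside, each with an interval above 1. The cause was not tested. Clusters were 61 with 160 regions joined under 20 kb, 14 with 47 over 1 kb from every gene, 7 with 18 with the upper 50% and 7 with 26 with close summits. A start lay inside 33.1% over 1 kb from every gene and 33.5% with close summits. Of 66 named regions 43 remained over 1 kb from every gene. The planned E-box windows around summits were not run. No paired analysis was possible because each group has 1 library. The depth of the shMED30 libraries limits what their lists can show: a peak missing from them is not shown to be absent.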
